A study of Mus musculus with 2 samples.

Results

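The 10 genes described here, which build or regulate the neuronal cytoskeleton, were followed in mouse hippocampus. They are Map1a, Map1b, Map2, Mapt, Map4, Stmn2, Nefl, Nefm, Nefh and Ina. They were chosen by gene name, and all 10 of the 10 names matched 1 gene each among 55536 annotated genes. Total RNA came from female B6CASTF1/J mice, first-generation hybrids of C57BL/6J and CAST/EiJ, at 36 days of age, with 300 ng of RNA used for a library. The tissue is labelled as a layer of the hippocampus, and the design held 1 group, with no treatment named, of 2 libraries, replicates 1 and 2. The labels number them as biological replicates 1 and 2. Both carry 1 donor identifier but separate biosamples, so whether they are separate mice is not clear. The spread between them may thus be technical or may be that between animals. No conditions were compared, and differences between the libraries are therefore described by size, without a test.

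Microtubule-associated proteins bind along microtubules and set their stability and spacing. MAP2 is the classical protein of dendrites, tau (encoded by Mapt) that of axons, MAP1B is prominent in growing axons, MAP1A in mature neurons, and MAP4 is found in most cell types. Stathmin-2, encoded by Stmn2, acts the other way, binding free tubulin and favouring disassembly in growing axons. Neurofilaments are the intermediate filaments of axons, assembled from the light, medium and heavy chains (Nefl, Nefm, Nefh) and alpha-internexin (Ina), and they set axon calibre.

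The members fall into families that can be read from their coding exons. Tau, MAP2 and MAP4 share a microtubule-binding domain of short repeats. In all 3 genes the annotation holds successive coding exons of 93, 82 and 113 bases in this domain. The 93-base exon, which encodes an additional repeat, is shown for Map2 and Map4 because its use differs between them in the values below. The exons are given 5′ to 3′ on the coding strand from the GENCODE M21 transcripts (mm10), with capitals at the 59 of 93 positions where both genes have the same base (63.4%, aligned without gaps).
Map2, chr1:66431527-66431619, plus strand: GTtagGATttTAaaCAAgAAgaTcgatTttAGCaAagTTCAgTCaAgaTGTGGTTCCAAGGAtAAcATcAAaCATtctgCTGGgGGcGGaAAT
Map4, chr9:110072613-110072705, plus strand: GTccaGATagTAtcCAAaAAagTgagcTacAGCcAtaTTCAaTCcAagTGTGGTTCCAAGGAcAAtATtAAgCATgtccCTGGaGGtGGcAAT

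The 4 neurofilament subunit genes each hold an internal coding exon of exactly 125 bases. It lies in the part that encodes the coiled-coil rod, along which the subunits pair, and it is shown for the 2 most abundant of them, Nefl and Ina, whose ratio is given below. Capitals mark the 95 of 125 positions that are the same in both genes (76.0%).
Nefl, chr14:68085974-68086098, plus strand: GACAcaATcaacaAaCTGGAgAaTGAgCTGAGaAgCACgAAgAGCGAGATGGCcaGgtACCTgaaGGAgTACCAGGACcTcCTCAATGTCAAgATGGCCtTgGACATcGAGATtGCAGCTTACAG
Ina, chr19:47021833-47021957, plus strand: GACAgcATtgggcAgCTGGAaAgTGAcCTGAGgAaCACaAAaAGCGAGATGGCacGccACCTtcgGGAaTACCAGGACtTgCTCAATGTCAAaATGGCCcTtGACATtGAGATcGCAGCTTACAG

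Summed expected counts were 32443497 in replicate 1 and 30125183 in replicate 2. An expected count is an estimate that divides a read among the transcripts it matches, and TPM scales it to RNA length and to the library. Markers of brain tissue were present: all 4 neuron markers, all 6 astrocyte, all 6 oligodendrocyte and all 5 microglia markers reached 1 TPM in each library. Of 5 peripheral neuron markers, 0 did so. The 8 choroid plexus markers summed to 26.7 TPM in replicate 1 and 1293 TPM in replicate 2, and replicate 2 thus stood apart in these genes.

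Every one of the 10 members exceeded 1 TPM in each library, and together they took 0.693% and 0.670% of the counts. Map2 was the most abundant at 448 TPM in replicate 1 and 433 TPM in replicate 2 (440 ± 10.3, SD, n = 2). It ranked 73 and 72 among 22028 protein-coding genes and held 25.1% ± 0.84 of the members' summed TPM. The Map2 gene (ENSMUSG00000015222.17) lies on chromosome 1, 66175273 to 66442583, plus strand. Its expected counts were 48712 and 45167.

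The MAP1 genes followed. Map1b, on the minus strand of chromosome 13 (ENSMUSG00000052727.6, 99421446 to 99516540), stood at 272 and 264 TPM, or 268 ± 5.47. Map1a, on chromosome 2 (ENSMUSG00000027254.13, 121289600 to 121310832), stood at 222 and 213 TPM, or 218 ± 6.40. The libraries lay close together for both genes. By counts, which grow with RNA length, Map1b led all members with 61093 and 55798. Its mean RNA length in replicate 1 was 9656 bases, that of Map2 4723 bases. Within each library Map1a stood at 0.818 and 0.808 of the Map1b level.

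Map4, on chromosome 9 (ENSMUSG00000032479.15, 109931460 to 110083955), lay between them at 242 and 226 TPM, or 234 ± 10.8. Its counts were 17788 and 15270.6. That in replicate 2 was not whole, so some reads were shared with another gene, and its value is uncertain. Counts that were not whole were found for 16.7% of all genes compared. The pseudogene Gm4734, which lies within Map4 on the same strand, had fractional counts as well, 13.1 and 6.60. In replicate 1, however, the Map4 count was whole while that of Gm4734 was not. Which gene shared reads with Map4 was not tested. Mapt, on chromosome 11 (ENSMUSG00000018411.17, 104231390 to 104332090), was lower at 127 and 112 TPM, or 119 ± 9.93. That was 0.283 and 0.260 of the Map2 level.

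Stmn2, on chromosome 3 (ENSMUSG00000027500.10, 8509360 to 8561606), had 185 TPM in replicate 1 and 154 TPM in replicate 2, or 170 ± 21.7. Nefl, the light chain gene on chromosome 14 (ENSMUSG00000022055.7, 68083863 to 68089095), had 191 and 160 TPM, or 176 ± 22.0. Their ranges across the libraries overlapped, while within each library Stmn2 lay just below Nefl, at 0.967 and 0.963 of its level. Both were lower in replicate 2 by more than the difference seen for Map2, Map1a or Map1b.

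The other neurofilament subunits were less abundant. Ina, on chromosome 19 (ENSMUSG00000034336.3, 47014698 to 47025327), stood at 75.6 and 66.7 TPM, or 71.1 ± 6.26. Nefm, on the minus strand of chromosome 14 (ENSMUSG00000022054.11, 68082590 to 68124846), stood at 49.4 and 41.6 TPM, or 45.5 ± 5.49. Nefh, the heavy chain gene on the minus strand of chromosome 11 (ENSMUSG00000020396.8, 4938754 to 4948064), was lowest at 17.96 and 15.25 TPM, or 16.6 ± 1.92. In both libraries the order was Nefl, Ina, Nefm and Nefh, with no overlap between neighbours.

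**Figure D1:**
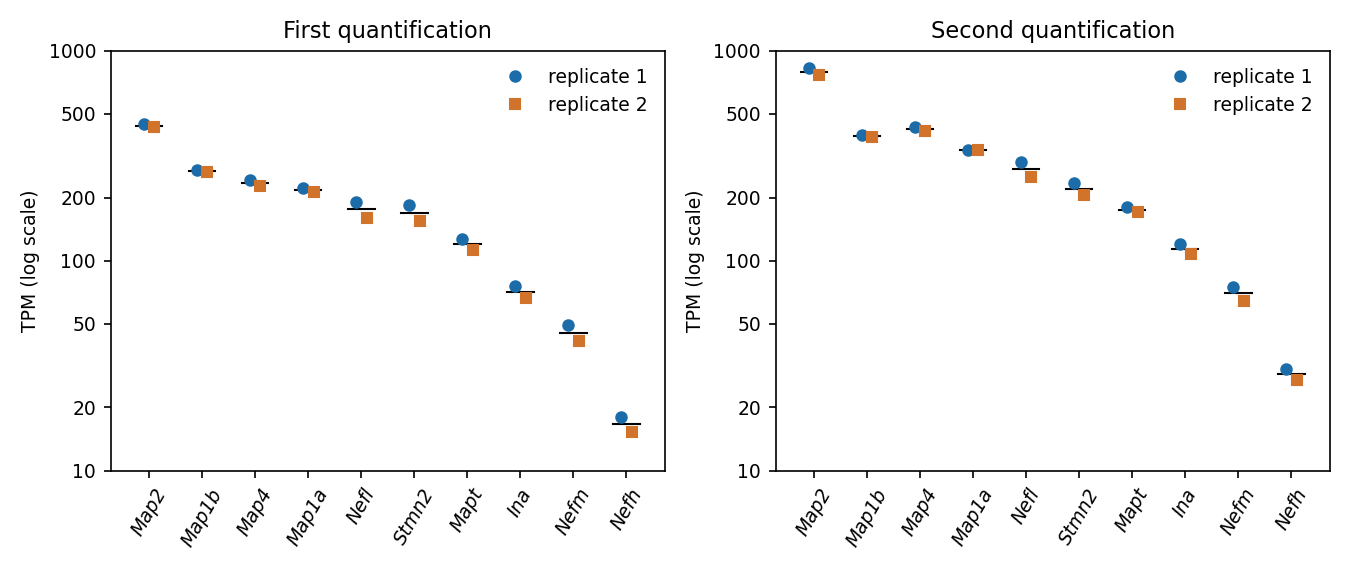
TPM of each member on a log scale (vertical axis) in the first and second quantification, with replicate 1 as circles, replicate 2 as squares and the mean of the 2 libraries as a line. Map2 is highest and Nefh lowest in both panels, and Map4 lies below Map1b in the first panel and above it in the second.

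A second quantification of the same libraries, also deposited by the authors, gave higher TPM for all 10 members, and its Map2 value was 796 ± 44.5. The share of all genes with higher TPM in it was not counted. On TPM scaled to protein-coding genes, no member was higher in the second quantification in both libraries. For Map2 that measure gave 1019 and 1021 in the first and 1058 and 986 in the second. Levels were therefore ordered within each table. The second quantification kept Map2 first and the last 6 places from Nefl to Nefh, but placed Map4 (422 ± 13.1) above Map1b (392 ± 6.80). Map1a followed at 337 ± 2.29, Nefl at 272 ± 30.5, Stmn2 at 221 ± 20.2 and Mapt at 175 ± 6.51, with no overlap between Nefl and Stmn2 here. Ina was at 113.7 ± 8.995, Nefm at 69.8 ± 7.67 and Nefh at 28.8 ± 2.37. The order of Map1b and Map4 was therefore not settled by these tables.

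Counts and TPM were then compared between the quantifications. With counts scaled to the library total, no member differed by over 1.2-fold in 1 direction in both libraries, where 7.88% of 12646 genes did (4.04% higher and 3.84% lower in the second). Nefh came nearest, with 1646 and 1331 counts by the first against 1894 and 1594 counts by the second. That is a log2 ratio of 0.19 and 0.23. On TPM scaled to protein-coding genes, Stmn2 (log2 ratio of second over first -0.49 and -0.45), Mapt (-0.33 and -0.27) and Map1b (-0.29 and -0.32) were past that fold, all lower in the second. On this measure 17.8% of 11846 protein-coding genes were past it, and 9.17% were lower. The 2 tables also divided the reads of these genes differently among transcripts, as given below.

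Relative to Nefl, Nefm and Nefh changed little between the libraries and Ina somewhat more. The Nefm level was 0.258 of Nefl in replicate 1 and 0.260 in replicate 2, and Nefh was 0.0939 and 0.0952 of Nefl. Ina stood at 0.395 and 0.417 of Nefl. The second quantification gave 0.256 and 0.257 for Nefm, 0.104 and 0.108 for Nefh, and 0.408 and 0.428 for Ina. Close ratios were not particular to the subunits: Stmn2 stood at 0.967 and 0.963 of Nefl, and Map2 at 1.648 and 1.641 of Map1b. Relative to Map2, in contrast, Nefl was 0.427 in replicate 1 and 0.370 in replicate 2, and Stmn2 was 0.413 and 0.356.

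No member passed a 1.2-fold difference between the libraries on counts scaled by TMM, edgeR's correction for library composition, while 9.32% of 12651 genes that averaged at least 100 counts did (3.25% lower and 6.07% higher in replicate 2). All 10 members had a log2 ratio of replicate 2 over replicate 1 below 0, against 55.5% of the genes compared, under TMM, and above 0 under scaling to the spike-in RNAs. The members' median was -0.16, beside -0.02 over all genes compared. Under spike-in scaling, which shifts every gene by the same amount, the 2 medians were 0.11 and 0.25.

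The neurofilament genes and Stmn2 had the lowest ratios among the members. Nefl, with 14760 and 11773 counts, had -0.25, and 3.56% of the genes compared had a lower ratio. Nefm (3770 and 3031 counts) had -0.24 and Nefh (1646 and 1331 counts) -0.23. Stmn2, with 6620 and 5422 counts, had -0.21, and Ina, with 5585 and 4696 counts, had -0.18. Spike-in scaling placed these 5 between 0.02 and 0.09. The microtubule-associated proteins ran from -0.03 for Map2 through -0.04 for Map1a, -0.06 for Map1b and -0.09 for Mapt to -0.15 for Map4.

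The neurofilament subunits took 18.3% of the members' summed TPM in replicate 1 and 16.8% in replicate 2, while the 5 microtubule-associated proteins took 71.6% and 74.0%. The second quantification gave 17.7% and 16.5% for the subunits and 74.2% and 75.9% for the MAPs. These shares do not depend on library scaling. The coefficient of variation between the libraries, estimated over 18246 genes, was 0.0898, which corresponds to an SD of 0.18 for a gene's log2 ratio.

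Some lists of cell type genes differed between the same libraries and others did not. None of the 6 astrocyte, 5 microglia, 4 endothelial and 4 newborn neuron markers compared passed 1.2-fold under TMM. Their medians were -0.02, -0.08, -0.02 and 0.02. All 4 neuron markers had ratios below 0 under TMM, with none past 1.2-fold. Their median was -0.15, with summed levels of 1778 and 1560 TPM, and that median was 0.12 under spike-in scaling. All 6 oligodendrocyte markers were over 1.2-fold lower in replicate 2, against 3.25% of all genes compared. Their median was -0.35 under TMM and -0.08 under spike-in scaling, with sums of 1511 and 1151 TPM. The 7 choroid plexus markers compared were over 1.2-fold higher, with a median of 4.28, and so were the 4 meningeal markers compared, with a median of 0.71. Of all genes compared, 6.07% were higher by that fold. Whether these differences had a part in the neurofilament values was not tested. In bulk RNA, fewer cells of a type and less RNA per cell cannot be told apart.

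**Figure D2:**
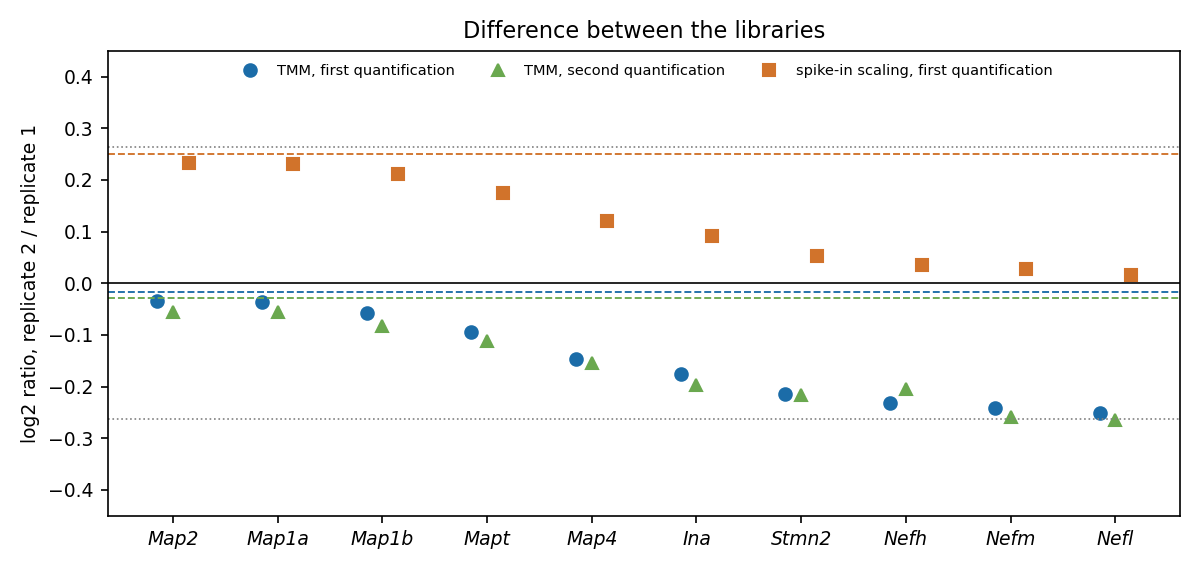
Log2 ratio of replicate 2 over replicate 1 for each member under TMM in the first (circles) and second quantification (triangles) and under spike-in scaling (squares). Dashed lines are the medians over all genes compared, in the same colours, and dotted lines mark 1.2-fold. The members run from Map2, nearest the median, to Nefl, and under spike-in scaling all 10 lie above 0 but below the median of all genes.

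Transcripts were examined next, for genes in which alternative exons change the protein. Of the members, 7 had at least 2 annotated transcripts, and in all 7 both quantifications named the same major transcript, against 75.7% of 7453 genes at 10 TPM or more. The major transcripts were Map1a-202, Map1b-201, Map2-204, Mapt-204, Map4-204, Stmn2-201 and Nefm-201. Nefl, Nefh and Ina have a single annotated transcript each. Of 17 member transcripts that took 10% or more of their gene's TPM in either quantification, 3 took under 1% in the other (17.6%, against 12.4% of 22192 such transcripts in all genes). They were Map2-201, Mapt-207 and Stmn2-203.

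Map2 has 24 annotated transcripts. The major form, Map2-204, holds a 3741-base coding exon and codes over 5484 bases, and corresponds to high-molecular-weight MAP2. Short forms skip that exon together with those of 207 and 135 bases that follow it, and code over 1401 bases without and 1494 bases with the 93-base repeat exon shown above. Map2-204 took 41.1% and 42.0% of Map2 TPM in replicates 1 and 2, and 33.9% and 36.9% in the second quantification.

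The short forms of 1401 bases, Map2-201, Map2-202 and Map2-205, have 1 and the same coding sequence and differ outside it. Together they took 33.6% and 32.7% of Map2 TPM, and 26.0% and 27.7% in the second quantification. The split among them depended on the quantification: Map2-201 had 129 and 123 TPM in the first and under 0.001 TPM in the second. Map2-202 had 11.8 and 11.9 TPM in the first and 211 and 210 TPM in the second. The sum over this coding sequence moved less between the quantifications than Map2-201 or Map2-202 did. Map2-218, an incomplete transcript of 546 bases, took 5.03% and 5.90% in the first and 14.7% and 10.5% in the second.

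Among complete coding transcripts, the 3741-base exon (chr1:66412407-66416147) was included in 53.4% and 54.3% of Map2 TPM. The second quantification gave 52.9% and 54.0%. Skipping therefore took 46.2% ± 0.61 and 46.5% ± 0.74 (SD, n = 2) in the 2 quantifications. With incomplete and non-coding transcripts counted as well, inclusion was 58.4% ± 0.16 and 62.9% ± 0.25. Inclusion of the 93-base repeat exon in Map2 was low, at 2.98% and 2.56%, and 3.03% and 3.84% in the second quantification.

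The major tau transcript, Mapt-204, codes over 1116 bases. Mapt-204 took 67.5% and 70.3% of Mapt TPM, and 75.1% and 74.5% in the second quantification. In Map4 the 93-base exon was included in 96.4% and 96.1% of complete coding TPM by the first quantification, and 86.9% and 84.7% by the second. Map4-214, which skips it, had 3.74 and 3.57 TPM in the first and 20.9 and 22.3 TPM in the second. A further Map4 exon of 114 bases, at chr9:110071026-110071139, was included in 15.04% and 15.7%, and 19.4% and 19.3% by the second quantification. Map4 holds other coding exons of 114 bases, to which these values do not apply.

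**Figure D3:**
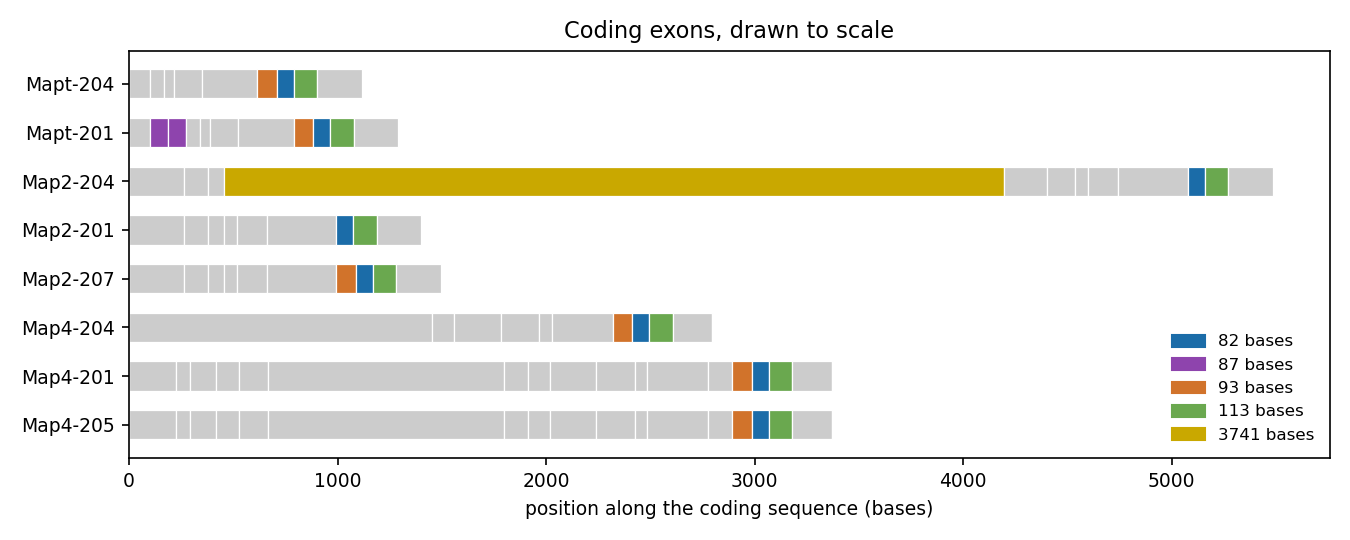
Coding exons of Mapt, Map2 and Map4 transcripts drawn to scale along the coding sequence in bases, with exons of the 5 lengths named in the key coloured and all others grey. The 93-base exon precedes the 82-base and 113-base exons in all transcripts shown except Map2-204 and Map2-201, and Map2-204 alone holds the 3741-base exon.

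The Mapt-204 form lacks a pair of 87-base exons that encode the N-terminal inserts of tau. Mapt-201 holds both, and they are printed here because they are the main difference between the tau forms seen. They lie on the plus strand.
Upstream insert exon, chr11:104287123-104287209: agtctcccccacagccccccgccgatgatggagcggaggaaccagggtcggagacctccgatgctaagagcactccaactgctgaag
Downstream insert exon, chr11:104289908-104289994: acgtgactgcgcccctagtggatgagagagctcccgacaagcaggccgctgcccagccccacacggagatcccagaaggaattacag
Among complete coding transcripts, these exons were included in 12.3% and 15.02% of Mapt TPM, or 13.7% ± 1.93, and in 13.3% and 18.2% by the second quantification, or 15.7% ± 3.49. With all transcripts counted, the upstream exon came to 25.5% ± 3.22 and the downstream exon to 11.2% ± 2.25 in the first quantification, and each to 14.9% ± 3.16 in the second. Mapt-201 itself stood at 10.3 and 12.2 TPM, and 16.7 and 24.5 TPM in the second quantification, and was higher in replicate 2 in both.

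No complete transcript in the annotation carries 1 insert alone. Mapt-207, an incomplete transcript of 293 bases with the upstream insert only, was given 17.45% and 9.66% of Mapt TPM by the first quantification and 0% by the second. Its count was 101 and 47.2, so the share rests on few reads of a short RNA. The 759-base exon of the long tau form known from peripheral neurons (chr11:104298498-104299256), with its shorter 711-base version, was in 1.75% and 1.94% of complete coding TPM, and 2.50% and 2.44% by the second quantification. These values rest on low levels that the quantifications assigned to different transcripts. Mapt-202 had 1.70 and 0.90 TPM in the first and under 0.001 TPM in the second. Mapt-203 had 0 and 0.91 TPM in the first and 3.89 and 3.78 TPM in the second.

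**Figure D4:**
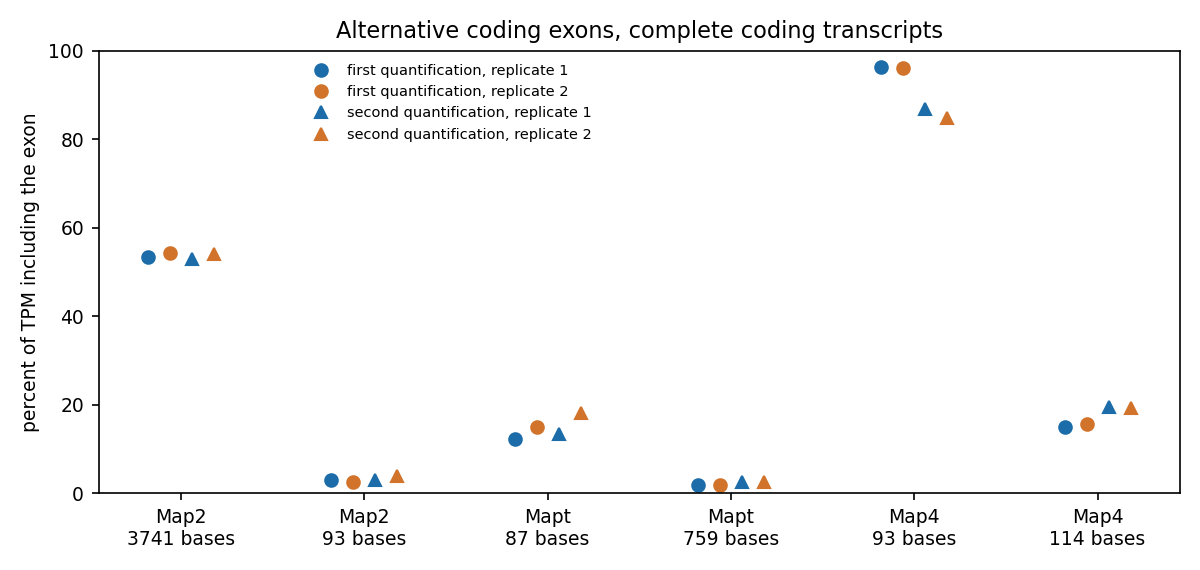
Percent of the TPM of complete coding transcripts that includes each alternative exon (vertical axis), by gene and exon length, for both libraries in the first (circles) and second quantification (triangles). The 3741-base Map2 exon lies between 52.9% and 54.3% in all 4 measurements, and the 93-base exon is at most 3.84% in Map2 and at least 84.7% in Map4.

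The MAP1 genes each have 1 dominant coding transcript. Map1a-202, coding over 8328 bases, took 87.7% and 87.9% of Map1a TPM, and 86.2% and 88.3% in the second quantification. Map1a-201, which starts upstream and codes over 9042 bases, took 10.97% and 11.95%. Its early coding exons of 102, 83 and 141 bases have the same lengths as those of Map1b. Map1b-201 took 78.5% and 77.7% of Map1b TPM, and 83.5% and 83.0% in the second quantification. The non-coding Map1b-202 took 3.86% and 7.41% in the first and 13.3% and 12.7% in the second. Map1b-206, also non-coding, took 11.6% and 6.68% in the first and 0% in the second.

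Map4 was the most divided member. Map4-204, which starts inside the gene at 110052048 and holds the repeat exons, took 34.95% and 32.8% of TPM, and 24.9% and 23.1% in the second quantification. Map4-206 codes over 297 bases and lacks the repeat domain, and it took 19.15% and 18.03%, and 20.4% and 19.4% in the second. Map4-209, a non-coding transcript of 940 bases, took 19.4% and 22.3% in the first, with 13.9% ± 2.82 in the second. Protein-coding transcripts of any length made up 72.5% ± 2.20 of Map4 TPM, and 67.2% ± 2.12 in the second quantification.

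Stmn2 was led by Stmn2-201, which codes over 537 bases, at 136 and 117 TPM. Nearly all of the rest lay in Stmn2-203, a non-coding transcript of 308 bases within the end of the gene (8560266 to 8561575), which the first quantification gave 47.7 and 35.9 TPM and the second 0 TPM. By the second quantification Stmn2-201 held 99.3% and 99.0% of Stmn2 TPM. Nefm-201 took 97.2% and 95.6% of Nefm TPM. Nefm-202, at 1.41 and 1.83 TPM, has an exon that overlaps the first exon of Nefl on the opposite strand. Whether counting used the strand is not given in the sources used here, so the Nefm-202 value is uncertain. The gene counts of Nefl and Nefm were whole in both libraries, so the sign of shared reads seen for Map4 was absent here. Antisense genes annotated within Map1a, Map2, Mapt and Map4 (Gm14978, Gm10558, Gm11659 and Gm43732) had 0 counts in both libraries. Other opposite-strand genes were expressed: Nt5c2 (2118 and 2135 counts) overlaps the start of Ina, and Ppip5k1 (3231 and 3076 counts) the end of Map1a.

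**Figure D5:**
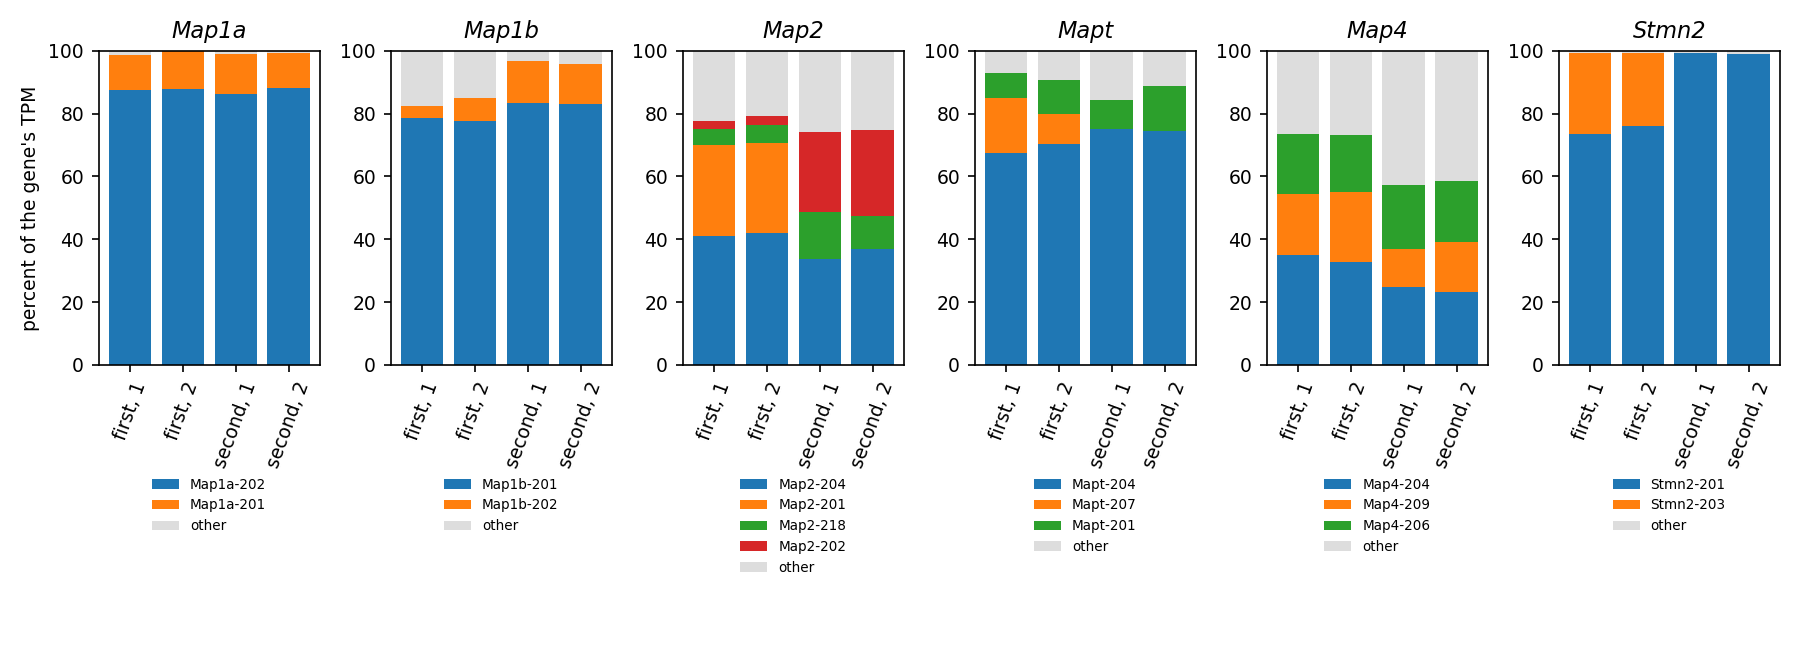
Percent of each gene's TPM (vertical axis) taken by its named transcripts, for the first and second quantification in replicates 1 and 2. The major transcript, in blue at the base, is the same in every bar of a gene, while Map2-201, Mapt-207 and Stmn2-203 appear in the first quantification only.

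Counting only complete coding transcripts changed the order of levels. Map1a and Map1b then lay together, at 216 ± 4.49 and 211 ± 5.37 TPM, below Map2 at 340 ± 6.62. Nefl, at 176 ± 22.0, came next, above Map4 at 141 ± 12.03 and Stmn2 at 127 ± 13.4, whose ranges overlapped. Mapt stood at 95.2 ± 3.02. The second quantification gave 334 ± 1.58 for Map1a and 330 ± 6.12 for Map1b, whose ranges overlapped. This measure was chosen after the transcript values were seen.

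Genes that work with the members were read from lists. All 21 other structural microtubule-associated proteins were detected, led by the doublecortin-like kinase gene Dclk1 at 233 ± 3.09 TPM and Map1lc3a, which encodes a light chain 3 protein of autophagy, at 97.8 ± 5.66 TPM. Their median log2 ratio was -0.07 under TMM and 0.20 under spike-in scaling. Map6d1 and Map10, named after their values were seen, were the 2 over 1.2-fold lower in replicate 2 under TMM, with -0.27 and -0.38. Of all genes compared, 3.25% were lower by that fold. Under spike-in scaling Map6d1 had 0.0006 and Map10 -0.12, neither past 1.2-fold, and Map10 had only 220 and 160 counts. All 3 other stathmins were detected, with Stmn3 at 257 ± 13.4 TPM above Stmn1 at 149 ± 3.90 and above Stmn2.

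Of 8 other intermediate filament genes, 6 were detected, led by the astrocyte filament gene Gfap at 113.1 ± 4.54 TPM and Vim at 22.8 ± 3.44 TPM. None of the 6 passed 1.2-fold, and their median log2 ratio was 0.12, whereas that of the 4 neurofilament subunits was -0.24. Prph, the peripheral neuron relative of the neurofilament genes, was at 0.33 and 0.50 TPM. Under spike-in scaling those medians of the filament and neurofilament genes were 0.39 and 0.03.

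Each of the 14 kinase genes and activators that act on tau and other MAPs was detected, led by the Cdk5 activator genes Cdk5r1 (95.9 ± 1.52 TPM) and Cdk5r2 (79.5 ± 4.81 TPM). None passed 1.2-fold, and the median log2 ratio was -0.04 under TMM and 0.23 under spike-in scaling. Of 18 genes for microtubule severing and tubulin modification, 14 were detected, led by the deglutamylase gene Agtpbp1 (152 ± 4.19 TPM) and the deacetylase gene Sirt2 (59.99 ± 3.30 TPM). Svbp, named after its value was seen, was over 1.2-fold lower under TMM, at -0.39, on only 119 and 86 counts. It was 1 of 14 genes compared in this list, against 3.25% of all genes compared. Under spike-in scaling Svbp had -0.12, not past that fold. All 7 filament turnover and cross-linking genes were detected, led by Uchl1 (369 ± 17.0 TPM) and the ubiquitin ligase gene Trim2 (163 ± 2.26 TPM), and none passed 1.2-fold. No gene compared in these 6 lists was over 1.5-fold apart under TMM, where 1.34% of all genes compared were.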

How the data were processed

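Total RNA of 2 hippocampal libraries was quantified on mm10 with GENCODE M21, per the file headers and labels. The authors deposited expected counts and TPM per gene and per transcript, and for each transcript the percent of its gene's TPM, per the file headers. The authors also deposited estimated counts and TPM from a separate quantification of transcripts. The software is not given in the sources used here. Bounds around TPM, deposited by the authors with no stated level and handled as a score, were not used. Members and lists were chosen with earlier results of these data known. Named genes are all members, the 2 highest of each list and any list gene over 1.5-fold apart. Named transcripts are each gene's major one and any at 10% or more in either quantification. Others are given where a comparison turns on them.

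In R 4.3.3, TMM factors came from edgeR 4.0.16 on rounded expected counts. Spike-ins and 26249 numbered entries, which name no gene (1.23e-05% and 1.62e-05% of counts), were left out. Log2 ratios used a prior count of 0.5 and were compared over genes that averaged at least 100 counts. The code for the TMM scaling was tested on simulated data with known fold changes. The ratios themselves carry no test. A gene was detected at 1 TPM in both libraries. Values are mean ± SD, n = 2. An exon counted as included where a transcript overlaps it and as skipped where an intron spans it. Complete transcripts are those annotated with both ends of the coding sequence. Alternatives were DESeq2 1.42.0 size factors, total counts, spike-ins, TPM and the second quantification. Python 3.11.15, pandas 2.3.3 and numpy 2.4.6 did the rest. Some exon sequences are not reported here.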

Additional observations from a re-analysis of the deposited data

How the results depend on the processing

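With 2 libraries of 1 group, differences between them carry no test. No paired analysis was possible because there is 1 group. The count of members over 1.2-fold apart, 0 under TMM, was 1 (Nefl) with DESeq2 size factors and 1 (Nefl) with the second quantification, and stayed 0 under the other alternatives. Spike-in scaling turned the members' median log2 ratio from -0.16 to 0.11, and the single ratios to 0.23 for Map1a, 0.21 for Map1b, 0.23 for Map2, 0.17 for Mapt, 0.12 for Map4, 0.0535 for Stmn2, 0.0153 for Nefl, 0.0267 for Nefm, 0.0351 for Nefh and 0.0914 for Ina. Map2 held 28.1% of the members' TPM in the second quantification, and Map1b 27.5% of their counts, in place of 25.1% for Map2. In each library alone the Map2 share was 24.5% and 25.7%. On TPM scaled to protein-coding genes, 3 members passed 1.2-fold between the quantifications (17.8% of protein-coding genes did), against 0 on counts. Detection of all 10 members and their major transcripts did not change with any alternative run. Of the other member values, 80 moved by less than the spread between the libraries under an alternative and 34 by more, while 10 changed sign under spike-in scaling. The 80 are not a measure of robustness, because many could not move. A value from 1 library always lies within 1 SD of the mean of 2. Total counts and DESeq2 size factors shift the log2 ratio of every gene by the same amount. Nefl, Nefh and Ina have only their complete coding transcript. With n = 2 that spread is itself poorly known. Depth limits short transcripts such as Mapt-207, whose share rests on 101 and 47.2 counts.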
